A study of Mus musculus with 4 samples.

Results

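Dietary fat is absorbed by enterocytes of the small intestine, and 10 genes of that route were examined for contact with the RNA-binding protein MSI2. The genes were taken from a given list of fat uptake and lipoprotein assembly genes: Apob, Mttp, Apoa1, Apoa4, Apoc3, Fabp1, Fabp2, Rbp2, Cd36 and Dgat1. They are 10 of the 21900 protein-coding genes of the RefSeq mouse annotation used here. Every row of the peak lists that touched the mm10 span of a listed gene by 1 base or more was kept, which gave 54 of 12061 peaks in the WT list and 60 of 16939 in the TRE-Msi2 list.

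The data are CLIP-seq peaks, in which ultraviolet light fixes RNA to the protein that touches it before an MSI2 antibody pulls both down. The study holds 4 samples of intestinal epithelial cells from C57BL6 mice, 2 of them WT and 2 TRE-Msi2, a line in which doxycycline turns on an Msi2 transgene. According to the extraction protocol the TRE-Msi2 cells were total epithelium 24 hours after doxycycline and the WT cells came from crypts, with no doxycycline recorded for WT. Genotype, tissue fraction and doxycycline therefore cannot be told apart. The labels give neither the animals behind each sample nor the transactivator that drives the transgene. The authors pooled the 2 samples of each genotype into 1 peak list, so the values have no error between replicates and differences between the genotypes have no test.

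After a meal, fatty acids and monoglycerides enter the enterocyte, are carried by small binding proteins, and are rebuilt into triglyceride at the endoplasmic reticulum. Microsomal triglyceride transfer protein loads that triglyceride onto apolipoprotein B, further apolipoproteins join, and the particle leaves the cell as a chylomicron. MSI2 is one of the Musashi proteins, which bind RNA at short motifs with a UAG core and affect the stability and translation of their targets.

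All 10 genes held peaks in both lists, where 20.3% of protein-coding genes in WT and 24.9% in TRE-Msi2 held one. The number of peaks per gene ran from 2 to 17 in WT, with a median of 3.5, and from 2 to 19 in TRE-Msi2, with a median of 4. Over all protein-coding genes with a peak the median was 1 in each list. The lipoprotein scaffold Apob and its loading factor Mttp carried the most. Per kb of span the order differed, with 1.91 WT peaks in Apoa4 against 0.434 in Apob and 0.205 in Mttp. By that measure Apoa1, Apoa4, Apoc3, Fabp1 and Fabp2 exceeded Apob in both lists, and Rbp2, Cd36 and Dgat1 did not. Apob also had the highest WT score of the 10 genes (81.4), and the fatty acid carrier Fabp2 the highest TRE-Msi2 score (98.3). The fatty acid translocase Cd36 and the acyltransferase Dgat1 had the lowest top scores in WT (18 and 22). A score is the authors' own value and behaves as a number of reads in a peak of a single 200-nt bin. Where neighbouring bins were joined, the rule that gave the score is not known: it is not a plain mean of whole counts over the bins, since the 36-bin peak of Apob has a score that becomes whole only when multiplied by 45. Highest scores and ranks among all scores take single-bin and joined peaks together, and these may not share a scale. The median top score was 49.7 over the 10 genes in WT and 62.5 in TRE-Msi2, against 21 and 28 over all protein-coding genes with a peak. Similar absorptive cell genes also all held peaks in both lists. Median top scores were 51.3 and 70.4 in 7 brush border peptidase genes and 41.8 and 53.25 in 4 disaccharidase genes. Their median numbers of peaks were higher than in the 10 genes, at 10 and 12 for peptidases and 15.5 and 27.5 for disaccharidases. The 10 genes were chosen with earlier results of these data known, so comparisons of them with all genes are descriptions only. RNA abundance was not analysed here, so a score cannot be read as contact per transcript, and fewer cells of a type cannot be told apart from less RNA per cell.

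The peaks lay on the strand of the genes. All 49 WT and 54 TRE-Msi2 peaks of the 8 genes with a strand in RefSeq were on that strand, compared with 84.3% and 86.3% of all peaks that touched a single protein-coding gene of known strand. The former include 4 peaks of Fabp2 in each list that also touch another gene. Brush border genes were alike: all peaks of Sis (35 and 44) and Mgam (23 and 52) lay on the strand of the gene. For Dpp4 it was 14 of 15 and 19 of 20. For Apoc3 and Dgat1 the direction was read from the peaks, which were all on the minus strand. Defining markers of enterocytes were present, with peaks in 6 of 6 (Alpi, Vil1, Sis, Lct, Anpep and Cdh17) in both lists. Of the other cell types, goblet cells showed 4 of 5 markers in each list, Paneth cells 5 of 5, and enteroendocrine cells 3 of 5 (WT) and 5 of 5 (TRE-Msi2). Pancreatic acinar genes (0 of 6) and macrophage genes (0 of 5) held no peak in either list. Over all protein-coding genes 20.3% (WT) and 24.9% (TRE-Msi2) held one, so a count of 0 in so few genes does not show that a cell type was absent. Of 5 hepatocyte genes, 2 (40%) held a peak in each list. Alb, Ttr and Fgb held none, whereas Cyp2e1 held 1 peak in each list and Apoh held 2 that lay opposite to its strand.

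**Figure D1:**
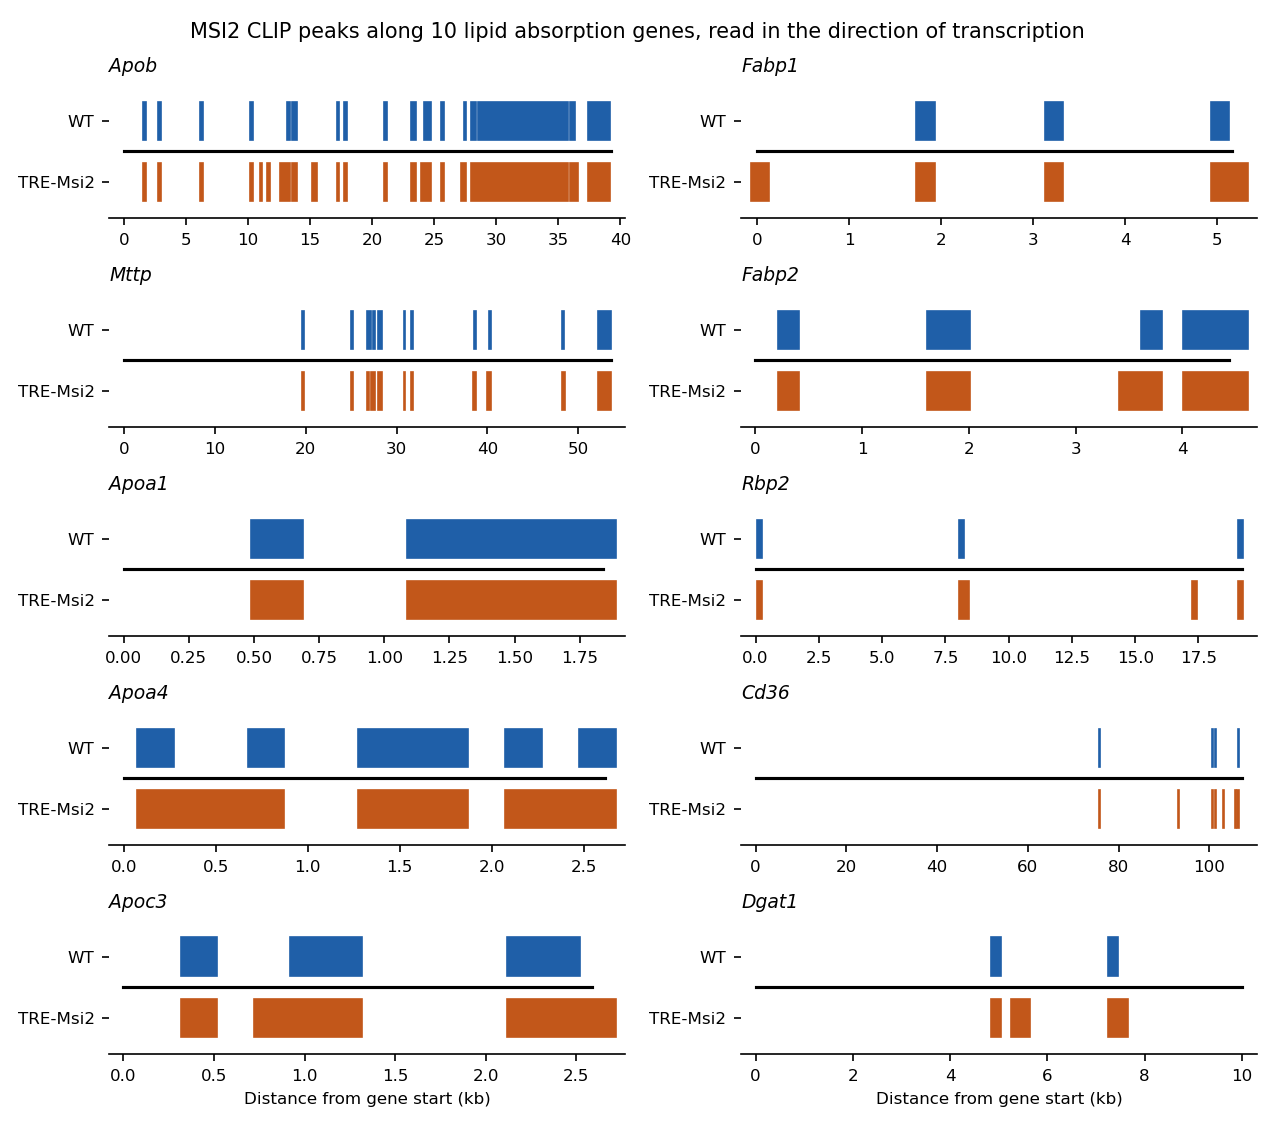
Peaks along the 10 genes in kb from the gene start, read in the direction of transcription; the black line is the RefSeq gene span, blue boxes are WT peaks and orange boxes TRE-Msi2 peaks, each drawn at its called width. Every WT peak has a TRE-Msi2 peak over it, Mttp and Cd36 were empty over their first 19.6 kb and 75.8 kb, and Apob was covered almost without a break near its end.

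Uptake was represented by Cd36, a membrane protein that binds long-chain fatty acids and also serves in adipocytes, macrophages and endothelium. The gene spans 107 kb of chromosome 5 (17781690 to 17888959, minus strand) and held 4 WT peaks, all single bins, with scores of 16, 18, 17 and 16. The lowest single-bin score of the WT list was 15, and all 4 were below the list median of 19. In TRE-Msi2 the gene held 7 peaks, with scores of 18.7, 25, 23, 39, 40, 21 and 22 in order of position, and the top one lay at 17788183 to 17788382. Of these 7, the 3 above the TRE-Msi2 median of 24.7 all lay between 17783183 and 17788382. At 17788183 to 17788382 WT scored 17, and at the neighbouring 17787583 to 17787782 the scores were 18 in WT and 39 in TRE-Msi2. The 40 of the TRE-Msi2 list exceeded 92.1% of its peaks, whereas the top WT score of 18 exceeded 39.3% of the WT peaks. Scores of different lists have no common scale, and no test of that difference could be made. No peak fell in the first 75.8 kb of Cd36 in either list, and the RefSeq promoter table places the start of Cd36 at 17835896, inside that stretch. A further single-bin peak on the same strand lay outside the span, beyond the gene end at 17776583 to 17776782, touched no annotated gene and was present in both lists (26 and 29). Markers of the other cell types that use Cd36 were looked up in the same way. Of 5 adipocyte genes, Cidec alone held a WT peak (16), and Cidec (29) and Lpl (34) held TRE-Msi2 peaks, while Adipoq, Plin1 and Lep held none. These shares, 20% and 40%, stand against 20.3% and 24.9% of all protein-coding genes. Of 6 endothelial genes, 0 held a WT peak and 1 (16.7%), Tek, held a TRE-Msi2 peak on the opposite strand, against the same 20.3% and 24.9%. The part of these cells in the Cd36 peaks was not tested.

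The intracellular carriers Fabp1, Fabp2 and Rbp2 belong to one family of small lipid-binding proteins. Fabp2, the intestinal fatty acid binding protein, spans 4.43 kb of chromosome 3 (122895072 to 122899506, plus strand) and held 4 peaks in each list. From start to end its WT scores were 29, 39, 78 and 65. The TRE-Msi2 scores were 53, 94.5, 72.5 and 98.3. In both lists the first peak was the lowest of the 4. The single-bin WT peak of 78 at 122898683 to 122898882 ranked 6th among the 7626 single-bin WT peaks, and as a read count its exact Poisson 95% interval is 61.7 to 97.3, clear of the 19.4 to 41.6 of the first peak. Such intervals cover counting error only. The TRE-Msi2 peak of 98.3 at 122899083 to 122899682, of 3 joined bins, ranked 25th of all 16939 scores and ran 176 nt past the annotated gene end. All 8 peaks of Fabp2 also touched the span of 4933405D12Rik, a long noncoding RNA gene of 41.5 kb that contains Fabp2 entirely. That gene lies on the minus strand, all 8 peaks lay on the plus strand of Fabp2, and outside Fabp2 its span held 0 peaks in either list. It was the only other gene span touched by any peak of the 10 genes.

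Fabp1, the liver-type fatty acid binding protein that the gut also makes, spans 5.16 kb of chromosome 6 (71199879 to 71205034, plus strand). Its 3 WT peaks scored 24, 36 and 61 from start to end, with Poisson intervals of 15.4 to 35.7, 25.2 to 49.8 and 46.7 to 78.4. The last therefore stood above the first beyond counting error, while the middle one overlapped both. In TRE-Msi2 the same sites scored 35, 50 and 60, the last one joined to a second bin that reached 172 nt past the gene end. One more TRE-Msi2 peak (24) lay over the annotated start, at 71199807 to 71200006, with no WT peak there. Rbp2, which carries retinol and retinal in the enterocyte, spans 19.2 kb of chromosome 9 (98490537 to 98509771, plus strand). Its highest score was at the start of the gene in both lists, unlike that of Fabp1 and Fabp2. The peak at 98490582 to 98490781, which begins 45 nt after the annotated start, scored 45 in WT (interval 32.8 to 60.2) and 59 in TRE-Msi2 (44.9 to 76.1). The other WT peaks of Rbp2 scored 20 in the interior and 18 at the gene end (10.7 to 28.4), so the start stood above the end beyond counting error in WT. In TRE-Msi2 the end scored 45 (32.8 to 60.2), which overlaps the interval of the start. A further TRE-Msi2 peak, 22 at 98507782 to 98507981, had no WT counterpart.

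Among the 8 genes with a RefSeq promoter sequence (GRCm38.p6), Fabp1 and Rbp2 had a peak that reached into it, and these letters are shown to place the peaks on the transcript. For Fabp1, capitals mark the first 30 transcribed bases and small letters the 72 bases of the bin that lie before the annotated start, chr6:71199807-71199908, plus strand. For Rbp2, capitals mark the first 5 bases of the peak and small letters the transcribed bases just before it, chr9:98490557-98490586, plus strand.
Fabp1: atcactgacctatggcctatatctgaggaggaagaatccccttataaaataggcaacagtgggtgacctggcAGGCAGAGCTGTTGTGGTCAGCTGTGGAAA
Rbp2: agcctgttccttcacagtcaccgaaCGTCC
A peak edge is no finer than its 200-nt bin, so the Fabp1 bin does not place reads before the start. The Musashi core, searched as TAG on the transcribed strand only, occurred in the first 50 transcribed bases of 5 of the 8 genes with such a sequence (Apob, Mttp, Fabp2, Rbp2 and Cd36) and not in those of Fabp1, Apoa1 and Apoa4. For Cd36 the table's start lies inside the span, as given above, and for Apob it lies at 7977677. Of all 32851 gene starts with such a sequence, 33.7% held the letters. A match is a description of the letters and not a binding site. Of the 5 genes with a match, only Rbp2 had a peak that reached these 50 bases, and its capitals hold no TAG.

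Dgat1 makes the final step of triglyceride synthesis. It spans 10.0 kb of chromosome 15 (76502012 to 76512021, peaks on the minus strand) and had the lowest top score of the 10 genes in TRE-Msi2 and the next to lowest in WT, though both were above the list medians of 24.7 and 19. Its 2 WT peaks scored 17 and 22, at 76506971 to 76507170 and 76504571 to 76504770, and both recurred in TRE-Msi2 at 28 and 30.5. Between them a TRE-Msi2 peak of 16 over 2 joined bins had no WT counterpart. Dgat1 was the gene among those of 10 kb or more with no peak within 2 kb of its end.

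Mttp encodes the transfer protein that lipidates apolipoprotein B. It spans 53.6 kb of chromosome 3 (138089855 to 138143418, minus strand) and held 11 peaks in each list, which placed it 14th in WT and 43rd in TRE-Msi2 among protein-coding genes by number of peaks, counting ties at their best rank. All 11 peaks of each list had a counterpart in the other. The highest and widest was the last, 1400 nt at 138089837 to 138091236 over the gene end, with identical edges in both lists and scores of 54.4 in WT and 68.6 in TRE-Msi2. The other 10 WT peaks scored 16 to 27 and the other 10 TRE-Msi2 peaks 30 to 58. The stretch from the start to the first peak, 19.6 kb, held none.

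Apob encodes the structural protein of the chylomicron, and its transcript is known for one very long exon toward the 3′ end that holds the site of editing by APOBEC1. The gene spans 39.2 kb of chromosome 12 (7977629 to 8016839, plus strand). Its 17 WT peaks covered 13200 nt, or 33.7% of the span, and its 19 TRE-Msi2 peaks covered 15400 nt, or 39.3%. The gene alone made up 55.3% of the bases covered in the 10 genes in WT and 51.8% in TRE-Msi2. It held the widest peak of each list: 7200 nt at 8006195 to 8013394 in WT, with a score of 52.4, and 7800 nt at 8005595 to 8013394 in TRE-Msi2, with 63.5. The next widest, 6400 nt in WT and 6600 nt in TRE-Msi2, lay on the mitochondrial genome in WT and, with equal width, on the mitochondrial genome and on Malat1 in TRE-Msi2. Exon positions were not used here, so the wide peak was not set against the long exon.

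Contact with Apob was uneven along the gene. Coverage in WT was 6.12%, 12.2%, 29.0% and 87.3% of 4 equal parts of the span from start to end, and in TRE-Msi2 it was 6.12%, 26.5%, 35.1% and 89.3%. The highest score of the gene lay at its end in both lists, over 1800 nt at 8014995 to 8016794, with 81.4 in WT and 82.7 in TRE-Msi2. It ranked 31st of all WT scores and 60th of all TRE-Msi2 scores. The 9 WT peaks before 8000795 scored 15 to 29. The 5 joined WT peaks beyond it that came before the last one scored 36 to 52.4, and 2 single bins among them scored 21 and 20. In TRE-Msi2 the rise along the gene was not steady either: the peak at 8004795 to 8005194 scored 21.3 between neighbours of 53 and 63.5. Of the 3 TRE-Msi2 peaks without a WT counterpart, all lay between 7988595 and 7993194, at scores of 23, 27 and 27. By number of peaks Apob was 4th in WT, after St3gal4 (40), Sis (35) and Mgam (23) and before Dmbt1 (16), Dpp4 and Erbin (15 each). In TRE-Msi2 it was 7th, next to Arfgef1 and Erbin (21 each) and Dpp4 (20) above and 4932438A13Rik, Cltc and Dmbt1 (17 each) below. All these neighbours have longer spans, from 63.2 kb to 190.0 kb, and no peak of theirs was wider than 2200 nt.

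**Figure D2:**
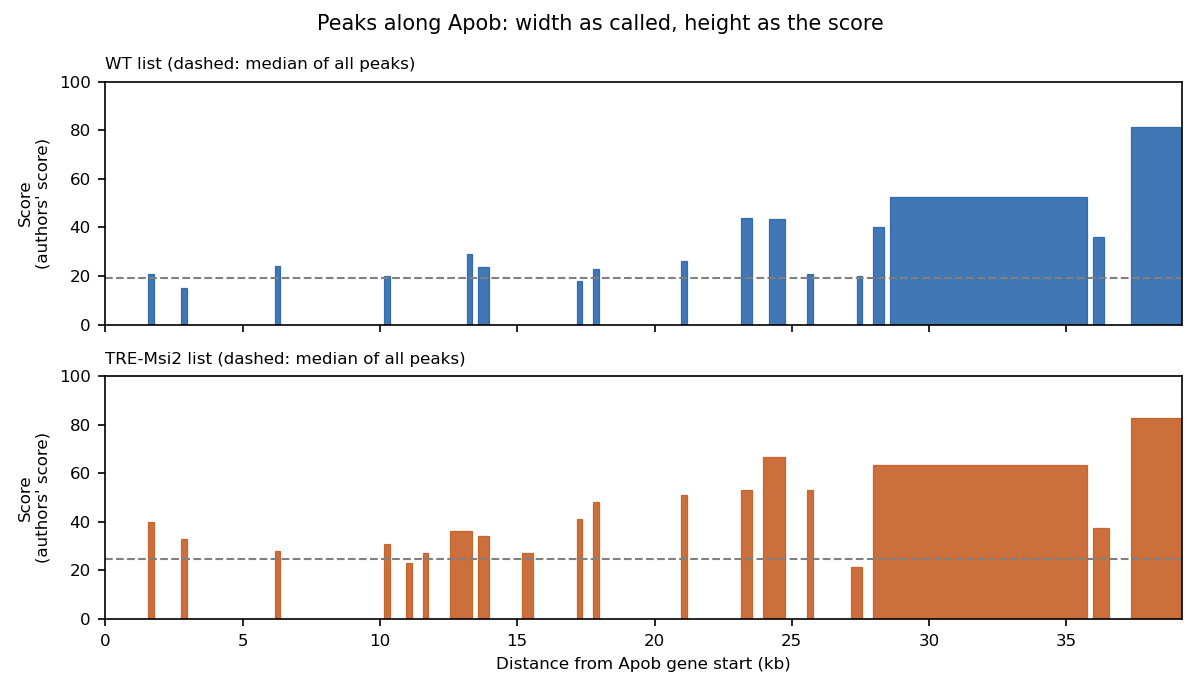
Peaks along Apob in kb from the gene start, with the called width on the horizontal axis and the authors' score as height; the dashed line is the median of all peaks of the list (19 in WT, 24.7 in TRE-Msi2). Scattered narrow peaks lie in the first part of the gene, where the 9 WT peaks before 8000795 scored 15 to 29, the widest peak of each list (7200 nt and 7800 nt) follows, and the highest score (81.4 and 82.7) lies at the gene end.

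The exchangeable apolipoproteins Apoa1, Apoc3 and Apoa4 lie within 14.8 kb of chromosome 9, with Apoc3 in the middle. Apoa1 and Apoa4 held plus-strand peaks, 7 in WT and 5 in TRE-Msi2, and Apoc3 held 3 minus-strand peaks in each list, from which its direction was taken. The gaps between the genes, 2580 nt and 5207 nt, held no peak of their own. Apoa1, the main protein of high-density lipoprotein, spans 1840 nt (46228630 to 46230469). Its 2 peaks had identical edges in both lists, with WT scores of 40 and 44.8 and TRE-Msi2 scores of 65 and 55.8, and covered 51.7% of the span. The later one ran over the annotated end of the gene. Apoa4, which the gut secretes on chylomicrons, spans 2615 nt (46240844 to 46243458). Its 5 WT peaks scored 16, 57, 40.7, 18 and 27 from start to end, and the 57 at 46241518 to 46241717 (Poisson interval 43.2 to 73.9) ranked 25th among single-bin WT peaks. In TRE-Msi2 the gene had 3 peaks, of 37.2, 79.3 and 36, where bins that were separate in WT were joined. Fewer peaks there went with more covered bases, 1941 nt against 1341 nt in WT. Apoc3, which inhibits lipoprotein lipase, spans 2587 nt (46233050 to 46235636). From its start its WT scores were 22, 23 and 18, close to the WT median of 19. The TRE-Msi2 scores at these 3 sites were 37, 45.7 and 36.7, all above the median of 24.7. The top Apoc3 peak exceeded 71.2% of WT and 95.7% of TRE-Msi2 peaks, whereas the top peaks of Apoa1 and Apoa4 exceeded 97.8% and 99.1% in WT and 99% and 99.6% in TRE-Msi2.

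**Figure D3:**
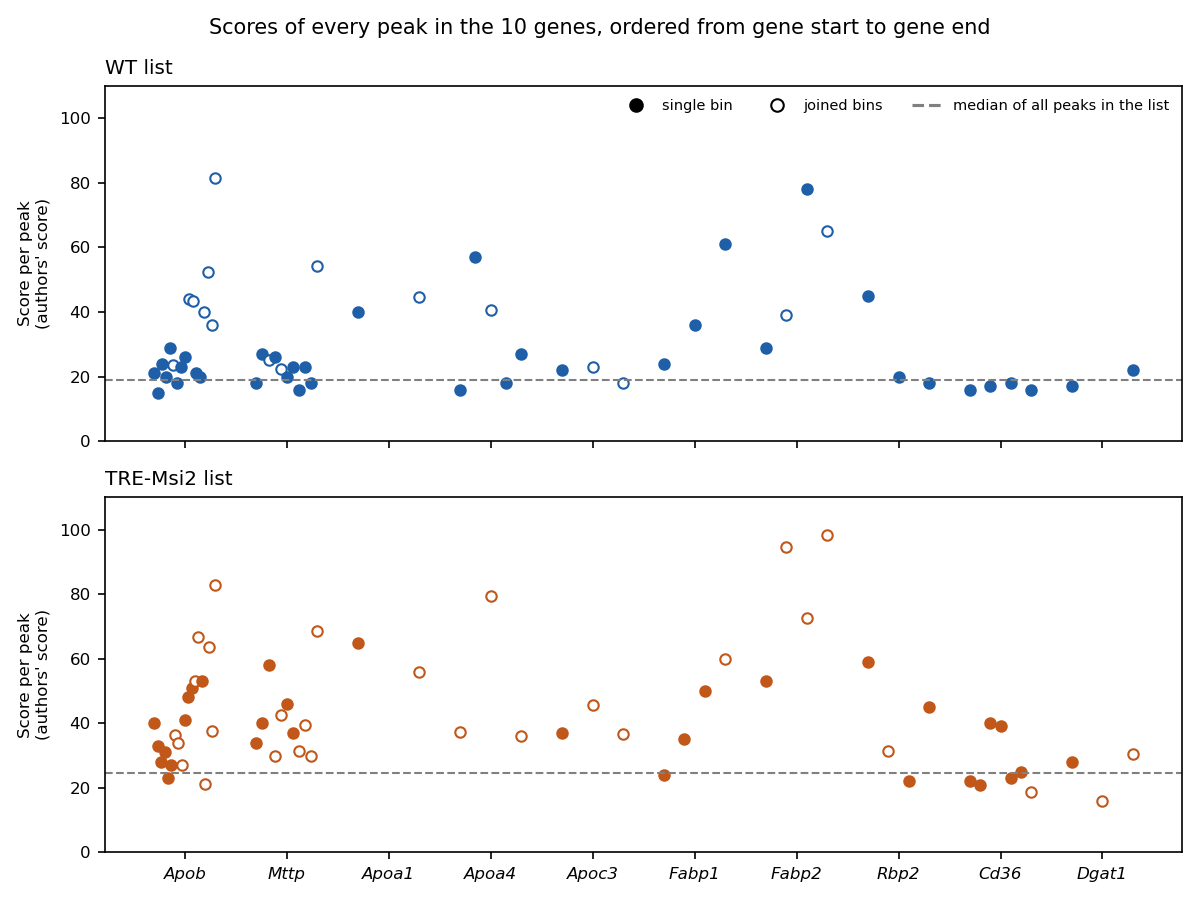
The authors' score of each peak in the 10 genes, ordered from gene start to gene end within a gene; filled circles are single bins, open circles joined bins, and the dashed line is the median of all peaks of the list. Above that median lay 40 of 54 WT peaks and 51 of 60 TRE-Msi2 peaks, and the 4 WT peaks of Cd36 lay below it.

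The sites were shared between the lists. All 54 WT peaks (100%, exact Clopper-Pearson 95% interval 93.4% to 100%) had a TRE-Msi2 peak over them on the same strand, where 91% of all WT peaks in protein-coding genes had one. Of the 60 TRE-Msi2 peaks 51 (85%, 73.4% to 92.9%) had a WT peak over them, where 58.7% of all in protein-coding genes had one. In 32 cases the edges were identical, 23 of them single bins. In these genes the bins of both lists began at the same positions, so overlapping single bins have identical edges by construction. Their number adds nothing to the overlap itself. Peaks of one gene share their transcript, and these intervals treat them as independent, so they understate the uncertainty. Shares are also given by score and by width. Above the list median, 48 of 51 TRE-Msi2 member peaks (94.1%) were shared against 76.6% of all, and at or below it 3 of 9 (33.3%) against 39.8%. Among single bins it was 24 of 31 (77.4%) against 44.6%, and among joined bins 27 of 29 (93.1%) against 83.2%. In bases, 99.2% of the WT coverage of the 10 genes lay inside TRE-Msi2 peaks and 79.7% of the TRE-Msi2 coverage inside WT peaks, against 93.1% and 58.8% over all protein-coding genes. Similar groups of absorptive cell genes had similar WT shares. It was 65 of 65 WT peaks (100%) in the 7 brush border peptidase genes and 66 of 67 (98.5%) in the disaccharidase genes. In TRE-Msi2 the peptidase genes had 63 of 81 peaks shared (77.8%, 67.2% to 86.3%), an interval that overlaps that of the lipid genes. The 4 disaccharidase genes had 64 of 109 (58.7%, 48.9% to 68.1%), of which Mgam had 22 of 52 and Sis 35 of 44, so the share of that group differed between its genes.

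The 9 TRE-Msi2 peaks without a WT counterpart scored lower than the other member peaks, from 16 to 27 with a median of 23, against a median of 40 for the other 51. Those of 27 in Apob and of 25 in Cd36 were still above the list median of 24.7. They fell in Apob (3), Cd36 (3), Fabp1, Rbp2 and Dgat1 (1 each), and the lowest single-bin score of that list was 20. Mttp, Apoa1, Apoa4, Apoc3 and Fabp2 had none.

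Peaks within 2 kb of a gene end made up a small share in the long genes. In the 5 genes with spans of 10 kb or more (Apob, Mttp, Rbp2, Cd36 and Dgat1), the centre lay within 2 kb of the gene end for 4 of 37 peaks in WT (10.8%, 3.03% to 25.4%) and for 6 of 44 in TRE-Msi2 (13.6%, 5.17% to 27.4%), where 44.7% and 38% of all own-strand peaks in protein-coding genes of that length did so. With the last 10% of the span in place of 2 kb, the shares of the 5 genes were 21.6% and 25%. The share within 2 kb was lower in genes with more peaks. It was 62.1% in genes with 1 WT peak and 9.86% in the 32 genes with 10 or more, next to 7.14% for Apob and Mttp (2 of 28). In TRE-Msi2 it was 58.8% in genes with 1 peak and 10.2% in the 70 genes with 10 or more, and 6.67% for Apob and Mttp (2 of 30). Counted by gene, 4 of the 5 held a peak within 2 kb of the end in each list, where 67.9% of such genes did in WT and 67.6% in TRE-Msi2. The low share of Apob and Mttp was thus close to that of all genes with 10 or more peaks, a class that includes both. A window of 2 kb has room for only a few peaks, so some fall of the share with the number of peaks per gene is built in. In the brush border peptidase genes it was 12.5% and 8.75%, and in the disaccharidase genes 7.46% and 3.67%.

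**Figure D4:**
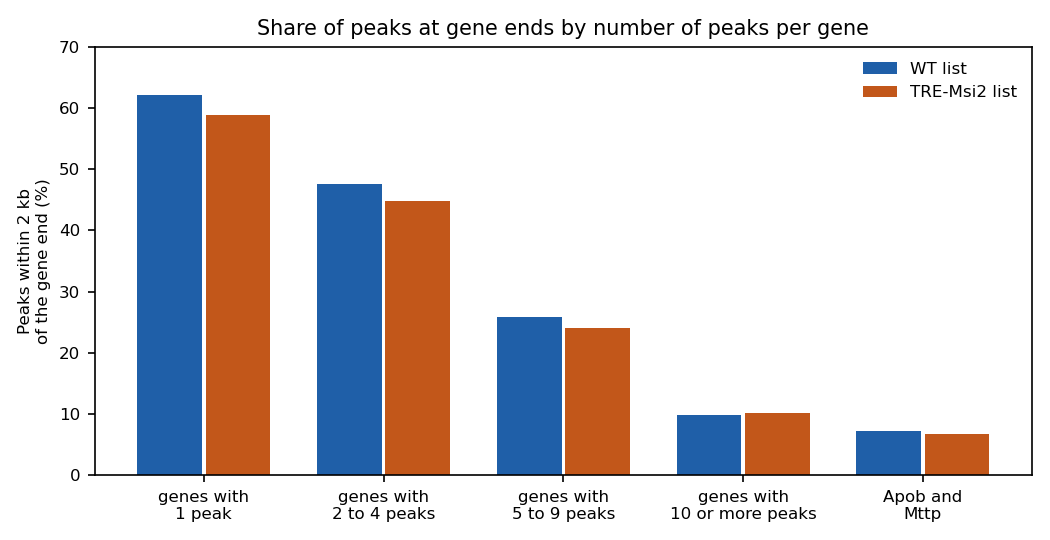
Share of peaks (%) with their centre within 2 kb of the gene end, in protein-coding genes of 10 kb or more grouped by their number of own-strand peaks, and in Apob and Mttp together; blue bars are WT and orange bars TRE-Msi2. The share fell from 62.1% and 58.8% in genes with 1 peak to 9.86% and 10.2% in genes with 10 or more, near the 7.14% and 6.67% of Apob and Mttp.

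Other genes of the same route held peaks less uniformly. Of 37 further genes, 24 held a peak in both lists, 4 in TRE-Msi2 alone, 0 in WT alone and 9 in neither. A peak was held by 64.9% of them in WT and 75.7% in TRE-Msi2, against 20.3% and 24.9% of all protein-coding genes. Among those with a peak, the top scores had a median of 24.5 in WT and 33.2 in TRE-Msi2, below the 49.7 and 62.5 of the 10 listed genes. Both sets were chosen with earlier results of these data known, so that difference is a description only. Among uptake and sterol transport genes 4 of 6 had peaks in each list. Npc1l1, the cholesterol importer, held 5 peaks in each (top scores 43.7 and 51). The sterol exporters Abcg5 (19 and 33) and Abcg8 (25 and 51.5) and the fatty acid transport protein gene Slc27a4 (23 and 23) had 1 or 2, and Scarb1 and Abca1 had none. All 4 further carriers had peaks, among them the acyl-CoA binding protein gene Dbi (30 and 72.5), the sterol carrier gene Scp2 (57.4 and 55.5) and the bile acid binding gene Fabp6 (17 and 26).

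In triglyceride and droplet formation 7 of 10 genes had a WT peak and 9 a TRE-Msi2 peak. Acsl5, which activates fatty acids to acyl-CoA, held 5 and 9 peaks (top scores 39 and 70.5). Dgat2, the second enzyme for the step of Dgat1, held 2 in each list (31 and 64). Gpat3 (17.3 and 30.2), the cholesterol acyltransferase gene Soat2 (12.3 and 23) and the droplet coat genes Plin2 (19 and 30) and Plin3 (19.2 and 37) had 1 to 3. Cideb (28.5 and 32.3) had 1 in each, which also touched Nop9. Mogat2, the monoglyceride acyltransferase, had 2 TRE-Msi2 peaks (top 37) and Agpat2 had 1 (21), with 0 in WT, and Acsl3 had none. The retinoid genes Lrat and Bco1 had none.

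In assembly and export 8 of 11 genes had a WT peak and 9 a TRE-Msi2 peak. P4hb, the partner subunit of the transfer protein, held 3 and 5 peaks (47.4 and 55). The export receptors Mia2 (6 and 7 peaks, top 24 and 34), Mia3 (20.5 and 27) and Surf4 (27.2 and 37) and the coat GTPase gene Sar1b (27 and 37.3) were present in both lists, as were Pla2g12b (12.7 and 28) and Tm6sf2 (16 and 26). Apoc2, the activator of lipoprotein lipase, had top scores of 23.3 and 62.5, but its peaks also touched Gm44805. A peak of Surf4 in each list also touched Surf2. Apobec1, the editor of Apob mRNA, had 1 TRE-Msi2 peak of 15 and 0 in WT, and Apoe and Apoa2 had none. That peak joined bins over 600 nt, and its 15 lies below the lowest single-bin score of the TRE-Msi2 list, 20. In WT the joined peaks of Pla2g12b (12.7) and Soat2 (12.3) likewise lie below the lowest single-bin score of 15. Of the transcription factors, 1 of 4 had a peak in WT and 2 of 4 in TRE-Msi2. Hnf4a held 3 peaks in each list (25.4 and 33.4), and 1 of the TRE-Msi2 peaks also touched Hnf4aos. In TRE-Msi2, only 2 of the 3 Hnf4a peaks and 3 of the 4 Mia3 peaks lay on the strand of the gene. Creb3l3 held 2 peaks in TRE-Msi2 alone (22), while Ppara and Nr1h3 had none. The absence of a peak means only that no bin passed the authors' peak caller.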

How the data were processed

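CLIP-seq of MSI2 was made from 4 samples, 2 per genotype. Tools named in the submitters' processing notes are cutadapt and TopHat, both without a version, next to the builds mm9 and mm10. The coordinates fit mm10. Per the file names, the authors removed duplicate reads, called peaks with Piranha and merged the samples of a genotype. In the deposited lists 1 cell joins a score and a p-value. Scores of single-bin peaks were exactly whole, with no tolerance, in 99.1% of WT and 96.7% of TRE-Msi2 peaks. The p-values of joined peaks were left aside, since 2566 WT and 4774 TRE-Msi2 peaks exceed 0.05 while no single-bin peak does. The depth of the libraries is unknown.

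Peaks were assigned to RefSeq gene spans (GRCm38.p6) in Python 3.11.15. Strands came from the RefSeq promoter table for 8 of the 10 genes and 17492 protein-coding genes, and otherwise from the majority of a gene's own peaks. Overlap between lists meant 1 base on the same strand. Assignment was tested on simulated peaks. Intervals were computed with SciPy 1.17.1 (exact Clopper-Pearson for shares, exact Poisson for single-bin scores). The members and gene lists were chosen with earlier results of these data known. Named genes were the 10 members, further pathway genes with a peak (1 is not reported here), other spans touched by member peaks, and the 3 genes on either side of Apob by number of peaks. Genome sequence, exons and untranslated regions were not used here.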

Additional observations from a re-analysis of the deposited data

How the results depend on the processing

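No paired analysis was possible because each genotype was deposited as 1 pooled list, and for the same reason no sample could be left out. Of the 8 results (members with a peak, number of peaks, share overlapped and share near gene ends, in each list), each was recomputed under other settings. All 50 values stayed within 1.5 times the count or within the 95% interval of the share. Some of them could not move. Trimming the TRE-Msi2 list leaves the WT counts unchanged, and all member peaks already lay on the strand used. The intervals are also wide: a WT share near the gene end of 21.6% in place of 10.8% still lies within. Members with a peak numbered 9 or 10: Fabp2 was lost when peaks touching another gene were left out, and 9 were left in WT, without Cd36, with the upper 50% of scores. The number of peaks ran from 40 to 54 in WT and 51 to 60 in TRE-Msi2. The share of TRE-Msi2 peaks overlapped ran from 74.5% with the upper 50% of each list to 89.1% when the longer list was trimmed by score to 12061 peaks, and the WT share from 96.3% to 100%. The share near the gene end ran from 7.69% to 21.6% in WT and from 9.09% to 25% in TRE-Msi2, highest with the last 10% of the span as window. A score of 15, the lowest single-bin WT score, has a Poisson interval of 8.40 to 24.7, so the intervals of the lowest peaks, such as those of Cd36 and Dgat1, reach below the lowest score called.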
